A study of Mus musculus with 12 samples.

Results

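The D segment at the centre of rearranged TCRβ genes was followed in 166377 productive rearrangements from CD8 T cells of tumor-bearing mice. A productive rearrangement is an in-frame sequence without a stop codon, and those kept were the ones to which the deposited files assign 1 D segment, TCRBD01 (here D1) or TCRBD02 (D2), and 1 J gene. They made up 80.8% of 205925 productive rows and 57.6% of all 288925 deposited rows in 12 libraries. In the J2 cluster 66379 of them carried D2 and 45785 carried D1, while in the J1 cluster 49265 carried D1 and 4948 carried D2.
All libraries came from age-matched young adult female C57BL/6 mice that bore MC38, a mouse colon adenocarcinoma line, and were treated with anti-CTLA-4 Ab and anti-PD-L1 Ab, so that no untreated group was compared. The 4 groups were CD27loCX3CR1lo, CD27hiCX3CR1lo and CX3CR1hi CD8 T cells from the spleen, and CD8 TILs, which are tumor-infiltrating lymphocytes, each with 3 libraries, 1 for every experiment (A, B and C). The splenic subsets were flow-sorted, whereas the TILs were taken by CD8a positive selection and could hold other CD8a-expressing cells. Libraries of the same experiment share mice, the study lists several mice for each experiment without the labels saying how they were divided among libraries, and DNA sequences of TCRβ genes hold no marker by which the cell type of a library could be checked. Productive templates, an estimate of the cells sampled, ranged from 5893 in the TILs of experiment A to 113660 in CX3CR1hi cells of experiment C. Unless templates are named, every unique nucleotide rearrangement was counted once.

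The variable part of a TCRβ chain is assembled in the thymus by RAG recombinase, which first joins a D segment to a J segment and then a V segment to the DJ joint. Nucleases trim the ends, terminal deoxynucleotidyl transferase adds N bases that no germline segment encodes, and the product is CDR3, the loop that contacts peptide. Mouse D and J segments lie in duplicated clusters. In the GRCm38.p6 annotation Trbd1 is at chr6:41533201-41533212, Trbj1-1 starts 651 bases after it, and Trbd2 is at chr6:41542163-41542176, 6475 bases after the last segment of the J1 cluster and 577 bases before Trbj2-1. As joining usually deletes the DNA between the segments, D1 can reach both J clusters, whereas D2 lies after J1 and is joined to J2. A T cell can also keep an out-of-frame rearrangement on its other chromosome. Such a rearrangement makes no receptor chain and serves as a background that selection on the receptor does not read directly.

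The D segments differ little in sequence, which bears on every value below. The stretches of rows with 1 D segment and no D base trimmed, 1765 productive rows for D1 and 1461 for D2, give the full segments of 12 and 14 bases, shown with the first base that distinguishes them in capitals (A6T: D1 has the first letter and D2 the last at position 6, counted from the 5′ end).
D1: gggacAgggggc
D2: gggacTgggggggc
The longest run of G was 5 bases in D1 and 7 in D2, and the longest stretch found in both was 6 bases. In the files, a row was given D1 or D2 in 100% of 136828 and 97611 rows by the longer exact match between its V and J parts, and all 48120 tied rows had equal matches. D1 could therefore be named only from a stretch that held the capital letter. For D2 that letter was in 90.9% of D2-J2 rows, and the remaining rows rested on the longer run of G.

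For each combination of D and J cluster, the rearrangement with the highest summed share over the 12 libraries is printed to show what a resolved D looks like. Each sequence has 87 bases of V, D and J, with the D stretch in capitals.
D1-J1: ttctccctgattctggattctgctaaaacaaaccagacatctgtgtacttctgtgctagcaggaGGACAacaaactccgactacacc
D1-J2: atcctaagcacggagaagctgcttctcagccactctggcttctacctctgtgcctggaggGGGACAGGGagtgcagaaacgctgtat
D2-J2: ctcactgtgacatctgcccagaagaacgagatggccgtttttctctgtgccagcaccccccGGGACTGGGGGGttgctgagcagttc
D2-J1: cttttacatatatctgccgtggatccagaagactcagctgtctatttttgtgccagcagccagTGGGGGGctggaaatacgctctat
The D2-J2 rearrangement (TCRBV19-01, TCRBJ02-01) kept 12 of 14 D2 bases and was read in 801 of 5893 templates of the TILs of experiment A, or 13.6% (Wilson 95% confidence interval 12.7% to 14.5%). In the same experiment it held 0.724% (0.657% to 0.798%) of CX3CR1hi templates, 1 template of the CD27loCX3CR1lo library and 2 of the CD27hiCX3CR1lo library. The D1-J2 rearrangement (TCRBV31-01, TCRBJ02-03) kept 9 D1 bases and held 6.33% (6.19% to 6.47%) of CX3CR1hi templates of experiment C. There it was also in the TILs, at 0.291% (0.227% to 0.374%), and in 19 CD27loCX3CR1lo and 27 CD27hiCX3CR1lo templates. The D1-J1 rearrangement (TCRBV29-01, TCRBJ01-02) was identified from 5 bases and held 3.99% (3.66% to 4.35%) of TIL templates and 0.359% (0.311% to 0.415%) of CX3CR1hi templates of experiment B, with 7 and 3 templates in the CD27loCX3CR1lo and CD27hiCX3CR1lo libraries. Each of the 4 was read in all 4 libraries of 1 experiment and in no library of the others, where 3 templates, the floor used for detection, would be 0.00264% to 0.0509%. The 1 and 2 templates of the D2-J2 rearrangement in the CX3CR1lo libraries lie below that floor. Intervals and floors cover counting error only.
The D2-J1 rearrangement (TCRBV05-01, TCRBJ01-03) held 17.5% (17.2% to 17.9%) of CX3CR1hi templates of experiment B, or 8948 templates, and 1.44% (1.25% to 1.67%) of the TILs. It held 0.429% and 0.189% in the CD27loCX3CR1lo and CD27hiCX3CR1lo libraries of that experiment. Its longest match was 7 bases to D2 and 5 to D1, so that a pairing which the order of the segments does not favour was called from a margin of 2 bases.

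A D segment was resolved in 80.7% ± 0.568 (SD, n = 12 libraries) of productive rearrangements, with a range of 79.7% to 81.6%. Ties made up 15.9% to 18.1% and rows without any D 2.00% to 2.50%. The resolved share was 75.3% ± 1.03 (SD, n = 12) in J1 rows and 83.5% ± 0.888 (SD, n = 12) in J2 rows, so that more J1 rows stayed unresolved. A further 165 productive rows had a resolved D and no resolved J. Between groups the resolved share did not differ beyond the spread between experiments (highest mean 81.1% in CD27hiCX3CR1lo, lowest 80.3% in CX3CR1hi; two-sided exact permutation of group labels inside each experiment, p = 0.318, Benjamini-Hochberg p = 0.365 over 10 tests between groups). Out-of-frame rows were resolved more often, at 82.0% ± 0.965 (SD, n = 12). The difference, productive minus out of frame, was -1.31 ± 1.28 points and below 0 in 11 of 12 libraries (exact sign-flip permutation p = 0.00586, adjusted p = 0.00753 over 9 within-library tests). Without experiment A or B it was -1.12 and -1.11 points and did not pass (exact sign-flip permutation p = 0.0703 and 0.0625). Sign-flip tests treat the 12 libraries as separate, and over the 3 experiment means no such test can give a p below 0.25.

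D2 was called in 59.9% ± 1.53 (SD, n = 12 libraries) of J2 rearrangements and in 8.83% ± 1.25 (SD, n = 12) of J1 rearrangements. The lowest J2 value was 58.4% and the highest J1 value 11.5%, so that the clusters did not overlap. The J2 share exceeded the J1 share by 51.0 ± 2.32 points (SD, range 48.2 to 57.4; higher in 12 of 12 libraries; exact sign-flip permutation p = 0.000488, the smallest possible with 12 libraries, adjusted p = 0.000879). The order of the segments set this direction in advance, so that the p-value is no separate finding. In J1 the 3 TIL libraries had 6.67% to 7.47% and all splenic libraries at least 8.55%, a difference that was not tested. It rests on 26, 24 and 39 D2 rows in the TILs (experiments A, B and C). Out-of-frame J1 rows did not show it, with 8.28%, 12.3% and 8.19% in the TILs and 7.80% to 9.47% in the splenic libraries. The difference between clusters grew with the margin by which one D matched better than the other. Where the match to one D was longer by at least 4 bases, D2 was called in 74.2% ± 1.29 (SD, n = 12) of J2 rows and 0.202% ± 0.227 (SD, n = 12) of J1 rows. At a margin of 1 base the shares were 43.1% ± 1.73 and 17.4% ± 1.98, and such calls made up 36.6% of J1 rows and 23.2% of J2 rows. D2 has 14 bases and a run of 7 G, and D1 has 12 bases and a run of 5, so that a wide margin can favour D2 in itself. The J2 share at a wide margin is therefore not a corrected estimate of D2 use.
The D2 rows with J1 were the short ones. Only 9.66% of D2-J1 stretches had at least 8 bases against 65.8% of D2-J2 stretches, 21.6% were made of G alone against 4.65%, and none of the 4948 was untrimmed. In D2-J1 rows the distinguishing letter was present in 63.5%. With J2, by contrast, D2 made up 45.2% of rows identified from 2 bases, 26.9% of those from 3 bases, 57.0% of those from 7 bases and 83.5% of those from 12 bases. Out-of-frame rows followed the same course, with D2 in 72.5% ± 3.81 (SD, n = 12) of J2 rows and 0.217% ± 0.190 of J1 rows at a margin of at least 4 bases.

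**Figure D1:**
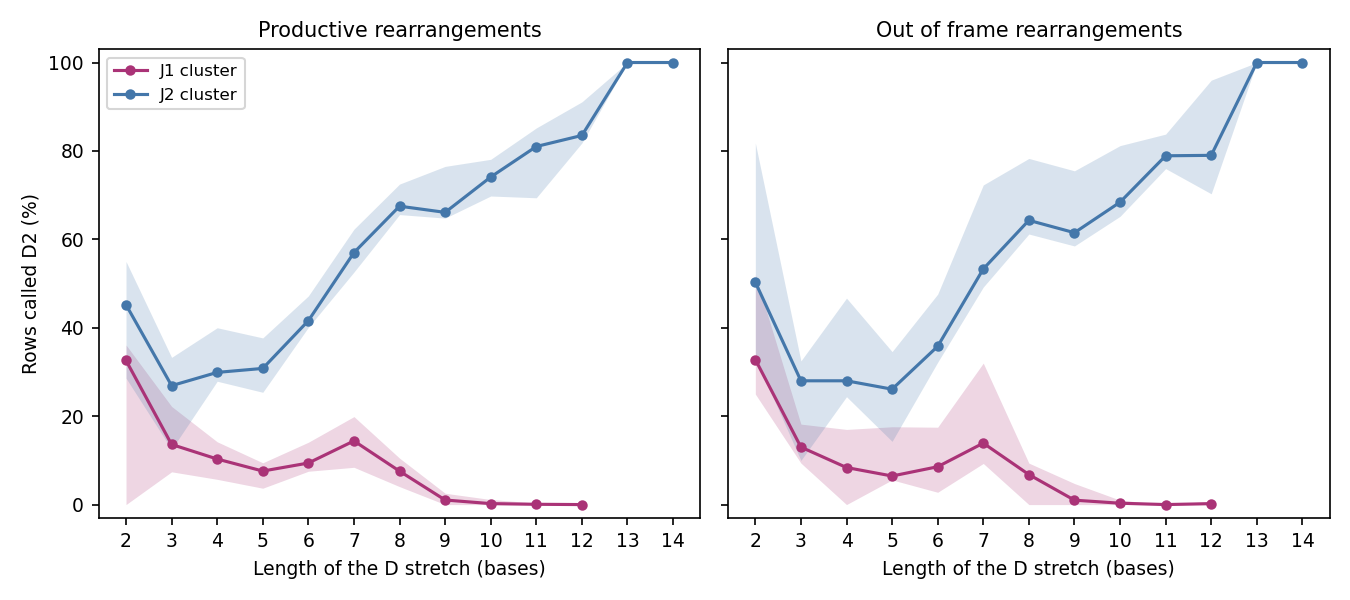
Percent of rows called D2 (y axis) against the length of the D stretch in bases (x axis), for J1-cluster and J2-cluster rows, productive (left) and out of frame (right). Points are all libraries pooled and bands span the lowest to highest library with at least 10 rows. In J1 the share falls to 0.0624% at 11 bases, and in J2 it rises to 83.5% at 12 bases, above which only D2 is long enough.

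Within the J2 cluster the D2 share differed between J genes. It was 63.7% ± 1.64 for TCRBJ02-03, 63.3% ± 2.10 for TCRBJ02-04, 61.8% ± 2.37 for TCRBJ02-05, 59.7% ± 3.33 for TCRBJ02-07, 59.1% ± 2.33 for TCRBJ02-01 and 49.0% ± 3.69 for TCRBJ02-02 (SD, n = 12 libraries each). TCRBJ02-02 stood below TCRBJ02-01, the next gene in this order, by 10.2 ± 4.63 points in 12 of 12 libraries (exact sign-flip permutation p = 0.000488, adjusted p = 0.00244 over 5 neighbouring pairs). The pairs are neighbours in an order set by these same libraries, so that each pair was chosen by its own values. The other 4 neighbouring pairs differed by 0.338 to 2.06 points and by less than their spread (exact sign-flip permutation, adjusted p = 0.297 to 0.688). This order does not follow position, since TCRBJ02-01 is the J segment nearest to D2 and TCRBJ02-02 the next. Among the same 6 genes, out-of-frame rows also had their lowest share with TCRBJ02-02, at 46.1% ± 4.56, but the highest with TCRBJ02-07, at 61.6% ± 5.45 (SD, n = 12). TCRBJ02-06, annotated as a pseudogene, was in 16 productive rows, all D1. Whether the first bases of a J gene bear on the D call was not tested.
TCRBJ02-07 was the J2 gene used most by both D segments. It took 30.9% ± 1.58 (SD, n = 12) of D2 rows and 16.1% ± 1.47 of D1 rows, while TCRBJ02-02 took 6.32% ± 0.792 and 5.06% ± 0.414. These shares are of all rows of a D, and D1 rows are also spread over J1. In J1 the D2 calls ranged from 6.43% ± 3.32 (SD, n = 12) with TCRBJ01-05 to 10.4% ± 1.23 with TCRBJ01-01, and 1 row, a D2 call, had TCRBJ01-07.

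**Figure D2:**
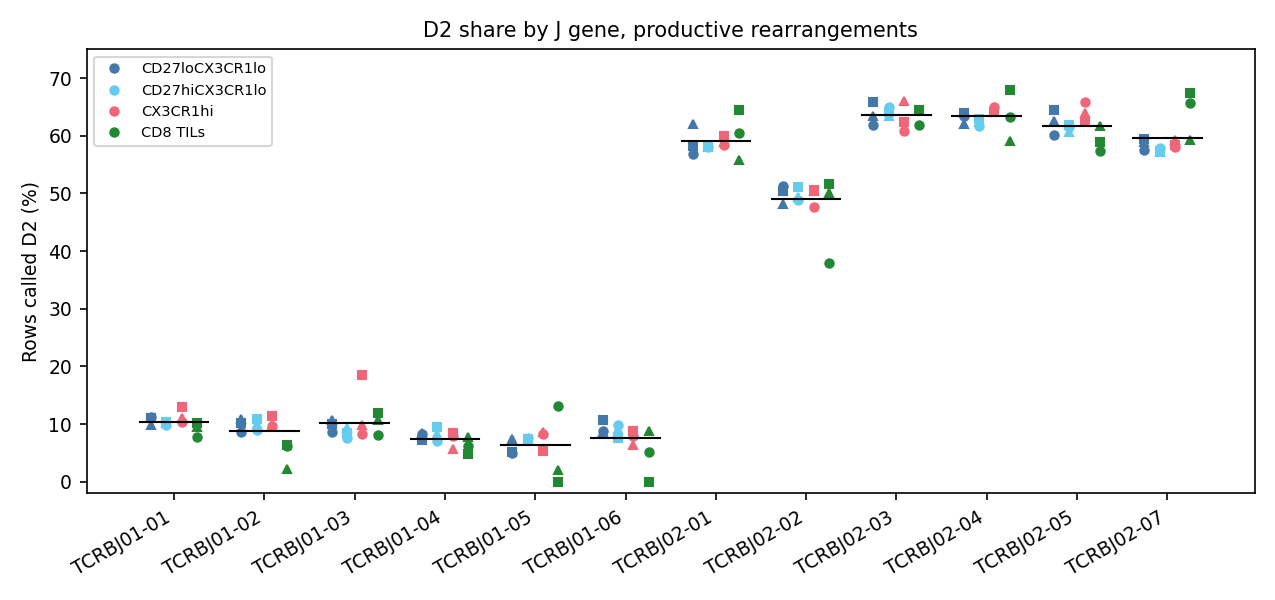
Percent of productive rearrangements called D2 (y axis) for each J gene (x axis), with 1 symbol per library, coloured by group and shaped by experiment (circle A, square B, triangle C). Black lines are means over 12 libraries. TCRBJ01-07 and TCRBJ02-06, with 1 and 16 rows, are not drawn. The J1 genes drawn lie at or below 18.5% and the J2 genes at or above 37.9%, the latter from TCRBJ02-02 in the TILs of experiment A.

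Among J2 rearrangements the D2 share lay between 58.4% and 64.1% in every library. It was 58.6%, 60.7% and 60.2% in the CD27loCX3CR1lo libraries of experiments A, B and C, and 59.0%, 59.1% and 58.4% in the CD27hiCX3CR1lo libraries. The CX3CR1hi libraries had 59.5%, 59.7% and 60.2%, and the TILs 60.3%, 64.1% and 58.5%. All CX3CR1hi values lay above all CD27hiCX3CR1lo values, by 0.979 ± 0.739 points in the mean (SD, n = 3; exact sign-flip permutation p = 0.25, the smallest possible with 3 experiments), and every other pair of groups overlapped. The Wilson 95% interval was 56.7% to 63.7% for the TIL library of experiment A, from 760 rows, against 58.4% to 59.6% for the CD27hiCX3CR1lo library of that experiment with 23290 rows. The highest group mean, 60.9% ± 2.85 in TILs, exceeded the lowest, 58.8% ± 0.370 in CD27hiCX3CR1lo cells (SD, n = 3 each), by 2.09 ± 2.54 points (two-sided exact permutation p = 0.439, adjusted p = 0.439). CX3CR1hi cells and TILs together exceeded the CX3CR1lo subsets by 1.03 ± 0.985 points (SD, n = 3; exact permutation p = 0.259, adjusted p = 0.365), from 0.0253 to 1.99 points over the experiments. Neither passed the test, and the p-values given for the largest difference between group means are those of the test over all 4 groups, here and below. Under other settings the difference given is that between the same pair of groups. They measure only the spread between these libraries, which may be technical in part. When only rearrangements with at least 2 templates were kept, the differences were 6.15 points (exact permutation p = 0.00174) and 3.35 points (exact permutation p = 0.00926).

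Among out-of-frame rearrangements the groups stood apart. The D2 share of J2 rows was 57.3%, 58.1% and 56.2% in CD27loCX3CR1lo cells (experiments A, B and C), 54.8%, 54.1% and 54.2% in CD27hiCX3CR1lo cells, 58.2%, 57.9% and 57.3% in CX3CR1hi cells, and 61.2%, 66.8% and 65.1% in TILs. Every TIL value lay above every splenic value and every CD27hiCX3CR1lo value below all others, while the CD27loCX3CR1lo and CX3CR1hi libraries overlapped. The TILs exceeded the CD27hiCX3CR1lo subset by 10.1 ± 3.24 points (SD, n = 3; exact permutation test of the 4 groups within experiments, p = 0.00347, adjusted p = 0.0116). This comparison and the next were added after their values were seen. It rests on 374, 404 and 588 J2 rows in the TILs, and the Wilson interval of the first of these began at 56.2%, within the splenic values. Without experiment A the difference was 11.9 points and without experiment C 9.62 (exact permutation p = 0.0833 each), and with at least 2 templates it was 7.48 (exact permutation p = 0.0920).
Set against each library's own out-of-frame rows, productive rows had more D2 in all 9 splenic libraries and less in all 3 TIL libraries. The difference was 4.23, 5.05 and 4.21 points in CD27hiCX3CR1lo cells, 1.38, 2.52 and 4.06 in CD27loCX3CR1lo cells and 1.29, 1.75 and 2.93 in CX3CR1hi cells (experiments A, B and C). In TILs it was -0.967, -2.78 and -6.67. Over all libraries the mean of 1.42 ± 3.41 points (SD, n = 12) did not pass the test (exact sign-flip permutation p = 0.172, adjusted p = 0.172). The groups themselves differed (7.97 ± 2.84 points between CD27hiCX3CR1lo cells and TILs; exact permutation p = 0.00174, the smallest possible, adjusted p = 0.00868). With templates as the weight the sign of that difference turned, to -4.14 points (exact permutation p = 0.627). With at least 2 templates it was 1.33 (exact permutation p = 0.427), and with D stretches of at least 8 bases 6.03 (exact permutation p = 0.226).

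**Figure D3:**
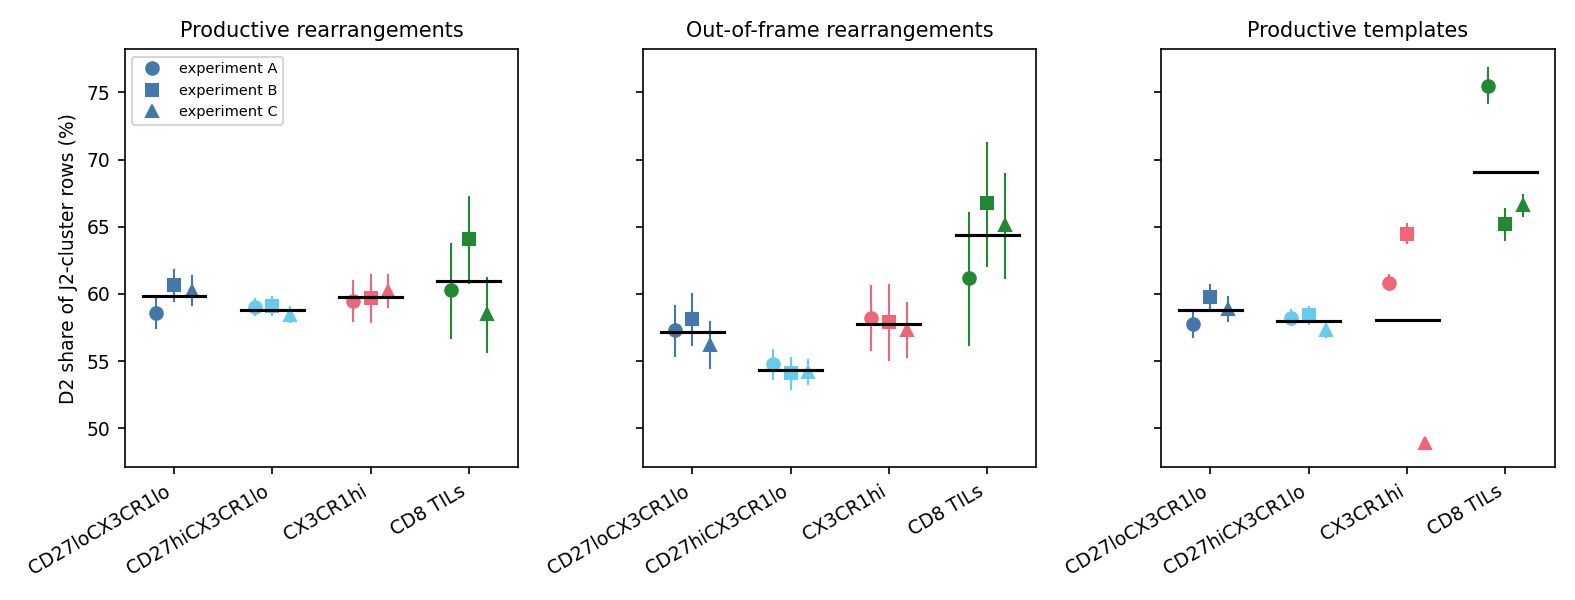
Percent of J2-cluster rows called D2 (y axis, starting above 0) in each group (x axis) for productive rearrangements, out-of-frame rearrangements and productive templates. Symbols are libraries with Wilson 95% intervals and black lines are means of 3 experiments. The libraries lie between 58.4% and 64.1% in the left panel, where CX3CR1hi and CD27hiCX3CR1lo cells do not overlap and all other pairs of groups do, the TILs lie highest in the middle panel, and the CX3CR1hi libraries spread from 48.9% to 64.5% in the right panel.

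Counting templates in place of rearrangements gives weight to expanded clones. The D2 share of J2 templates was 57.8%, 59.8% and 58.9% in CD27loCX3CR1lo cells, 58.2%, 58.4% and 57.3% in CD27hiCX3CR1lo cells, 60.8%, 64.5% and 48.9% in CX3CR1hi cells, and 75.5%, 65.2% and 66.6% in TILs. All 3 TIL values were the highest of their experiment, and the spread over experiments was 8.16 points in CX3CR1hi cells against 0.581 in CD27hiCX3CR1lo cells (SD, n = 3). The TILs exceeded the CD27hiCX3CR1lo subset by 11.1 ± 5.48 points, which did not pass the test (exact permutation p = 0.101, adjusted p = 0.201).
Single clones took large shares of these templates. In the TILs of experiment A the D2-J2 rearrangement printed above held 19.2% of J2 templates, and without it the D2 share fell from 75.5% to 69.7%. In CX3CR1hi cells of experiment C the printed D1-J2 rearrangement held 11.1%, and without it the share rose from 48.9% to 55.0%. The printed D2-J1 rearrangement took the D2 share of J1 templates in CX3CR1hi cells of experiment B to 44.8%, against 5.74% without it.
Rearrangements read more than once carried D2 less often than those read once in all 9 splenic libraries. The difference was -3.81, -3.75 and -4.06 points in CD27loCX3CR1lo cells, -4.07, -4.10 and -5.71 in CD27hiCX3CR1lo cells and -4.40, -1.75 and -4.72 in CX3CR1hi cells. In TILs it was 3.06, -0.389 and 1.28. The difference between groups, added after its values were seen, had an exact permutation p of 0.0330 within experiments and an adjusted p of 0.0825. For 1 template the D2 share was 61.1% ± 1.05, 60.1% ± 0.119, 61.4% ± 0.912 and 60.3% ± 3.42 (SD, n = 3) in CD27loCX3CR1lo, CD27hiCX3CR1lo, CX3CR1hi cells and TILs. For 3 to 9 templates it was 53.0% ± 0.145, 54.9% ± 1.87, 58.4% ± 2.36 and 61.7% ± 1.19 in the same order. For 2 templates it was 58.1% ± 1.39, 55.6% ± 0.902, 57.0% ± 2.38 and 60.7% ± 3.68, so that the order of the groups was not the same in these classes. For at least 10 templates it was 59.1% ± 1.67 in CX3CR1hi cells and 64.4% ± 3.13 in TILs (SD, n = 3). The CX3CR1lo libraries held only 2 to 14 J2 rows of that size.

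D2 rearrangements had the longer CDR3. Within J2, mean CDR3 length was 43.5 ± 0.0774 bases with D2 and 41.2 ± 0.106 with D1 (SD, n = 12 libraries), and D1-J1 rearrangements had 42.2 ± 0.0738. The D2 mean exceeded the D1 mean within J2 by 2.31 ± 0.107 bases (SD, range 2.10 to 2.47; 12 of 12 libraries; exact sign-flip permutation p = 0.000488, adjusted p = 0.000879). Most of this length was D sequence, as the D stretch was longer by 1.94 ± 0.121 bases (SD, n = 12). That part is a description, since a D is named from these bases and the D2 segment is 2 bases longer. V bases added 0.244 ± 0.0260, J bases 0.0376 ± 0.186 and N bases 0.0884 ± 0.0665 (SD, n = 12). D2 was counted as trimmed more than D1 at its 5′ end, by 0.655 ± 0.0748 bases, and less at its 3′ end, where the difference D2 minus D1 was -0.595 ± 0.117 bases, in 12 of 12 libraries each (SD). This too is a description, because the call limits which trimmed ends can be seen. Every D1-J2 row had to keep the distinguishing letter, whereas 90.9% of D2-J2 rows held it.
N insertions differed little in number between the D segments, and the small differences had opposite signs at the V and J sides. Productive J2 rearrangements held 3.56 ± 0.0679 N bases with D2 and 3.47 ± 0.0467 with D1 (SD, n = 12), and the difference was above 0 in 12 of 12 libraries (exact sign-flip permutation p = 0.000488, adjusted p = 0.000879). With the J2 genes weighted equally the difference was 0.0314 bases (exact sign-flip permutation p = 0.177). Between D and J, D2 had 0.152 ± 0.0590 more N bases, in 12 of 12 libraries (exact sign-flip permutation p = 0.000488, adjusted p = 0.000879). Between V and D it had fewer, with a difference of -0.0633 ± 0.0477 that was below 0 in 11 of 12 libraries (exact sign-flip permutation p = 0.00146, adjusted p = 0.00220). Weighting by templates turned this last sign, to 0.103 bases (exact sign-flip permutation p = 0.237). With D stretches of at least 8 bases the V-D difference was -0.0514 (exact sign-flip permutation p = 0.0664). With a D match longer by at least 3 bases it was -0.0189 (exact sign-flip permutation p = 0.501). The D-J difference was 0.166 and 0.168 bases under these settings. N bases are those left outside the matched V, D and J bases, so that their counts also depend on the D call.

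**Figure D4:**
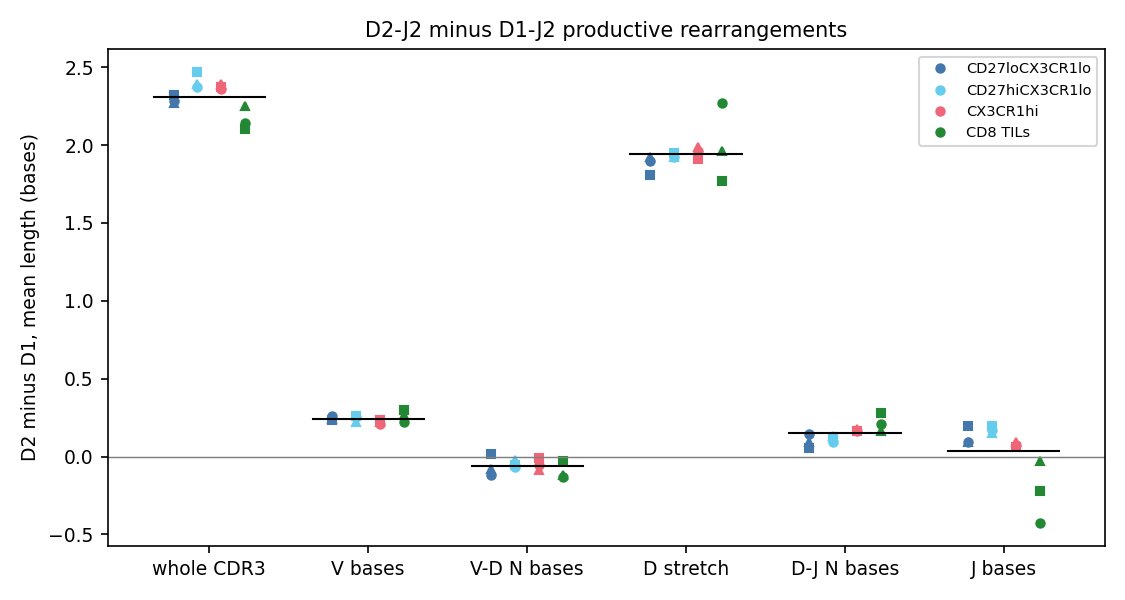
Difference in mean length, in bases, between D2-J2 and D1-J2 productive rearrangements (y axis) for the whole CDR3 and its parts (x axis). Symbols are libraries, coloured by group and shaped by experiment, and black lines are means over 12 libraries. The D stretch accounts for 1.94 of 2.31 bases, and J bases are below 0 in the 3 TIL libraries only.

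The length difference was smaller in TILs. It was 2.14, 2.10 and 2.25 bases in TILs (experiments A, B and C), 2.28, 2.32 and 2.27 in CD27loCX3CR1lo cells, 2.37, 2.47 and 2.39 in CD27hiCX3CR1lo cells and 2.36, 2.37 and 2.39 in CX3CR1hi cells. The TIL libraries lay below all others, and the difference of 0.248 ± 0.114 bases between CD27hiCX3CR1lo cells and TILs passed the test (SD, n = 3; exact permutation p = 0.00174, adjusted p = 0.00868). J bases moved with it, at -0.427, -0.223 and -0.0273 in the TILs and between 0.0616 and 0.199 in the splenic libraries, and their part in the result was not tested. The call was lost with at least 2 templates (0.489 bases, exact permutation p = 0.0608), D stretches of at least 8 bases (0.369 bases, exact permutation p = 0.385) or rearrangements of 1 library (0.385 bases, exact permutation p = 0.189). The sign turned with templates as the weight (-0.461 bases, exact permutation p = 0.880). For N insertions the group means of the difference between D2 and D1 ranged from 0.0391 ± 0.0335 in CD27loCX3CR1lo cells to 0.125 ± 0.112 in TILs (SD, n = 3; exact permutation p = 0.236, adjusted p = 0.365).
As a share, D2 rose with every step of CDR3 length from 33 bases on, which restates the longer CDR3 of D2 rearrangements. It was called in 31.2% ± 4.43 (SD, n = 12 libraries) of J2 rearrangements of 33 bases, 47.5% ± 2.38 of those of 39, 58.7% ± 2.57 of those of 42, 76.3% ± 3.89 of those of 48 and 88.0% ± 5.51 of those of 54. By N insertions it moved little, from 59.3% ± 3.80 with no N base to 61.3% ± 6.00 with 8 or more (SD, n = 12), with means between 57.9% and 62.9%.

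None of the 6 forward reading frames of the D segments holds a stop codon, so that each can occur in a productive chain. The frames are named by the codon position of the first germline D base. D1 was read in positions 1, 2 and 3 in 36.7% ± 1.42, 33.7% ± 1.62 and 29.6% ± 1.68 of rows, and D2 in 33.1% ± 1.76, 34.7% ± 1.97 and 32.2% ± 0.778 (SD, n = 12 libraries). For D1 stretches of at least 8 bases, the share of position 1 was 40.9%. The lowest p-values between groups were for position 2, where TILs had 31.3% ± 0.208 for D1 and 37.2% ± 2.06 for D2 against 34.0% ± 0.0287 and 33.3% ± 0.820 in CD27hiCX3CR1lo cells (SD, n = 3). Neither passed the correction over 6 tests (exact permutation p = 0.0191 and 0.0174, adjusted p = 0.0573 each).

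Rows called D1 were split almost equally between the clusters. The split covers resolved rows only, and 75.3% of J1 rows were resolved against 83.5% of J2 rows. How the unresolved rows and the D2 calls from short matches would change it was not tested. J2 genes held 47.3% to 48.7% of D1 rows in CD27loCX3CR1lo cells, 47.7% to 48.7% in CD27hiCX3CR1lo cells, 47.2% to 49.5% in CX3CR1hi cells and 48.4% to 50.8% in TILs. The groups overlapped (exact permutation p = 0.328, adjusted p = 0.365). Productive D1 rows used J2 more often than out-of-frame D1 rows by 1.36 ± 1.81 points (SD; higher in 11 of 12 libraries; exact sign-flip permutation p = 0.0298, adjusted p = 0.0335). Without experiment B or C the difference was 1.52 and 0.789 points, and neither passed (exact sign-flip permutation p = 0.0938 and 0.289).
The D1 stretch was much the same with either cluster, at 6.58 ± 0.0974 bases in D1-J1 and 6.67 ± 0.0552 in D1-J2 rows (SD, n = 12), with 3.34 ± 0.0526 and 3.47 ± 0.0467 N bases. D2-J2 rows kept 8.61 ± 0.0994 D bases, whereas D2-J1 rows kept 5.50 ± 0.167 with 3.17 ± 0.402 N bases.

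The D2 share spread widely over V genes. Over 20 V genes with at least 30 J2 rows in each of the 9 splenic libraries, the mean D2 share ranged from 33.7% ± 2.91 (SD, n = 9 libraries) for TCRBV29-01 to 71.3% ± 2.71 for TCRBV04-01, with a median of 60.7%. TCRBV29-01 (30.1% to 38.2%) and TCRBV26-01 (32.1% to 41.7%) lay below every library of all other V genes. TCRBV14-01 had 49.5% ± 1.80 and TCRBV13-02 67.4% ± 1.68. In out-of-frame rows of the 9 splenic libraries, pooled, the D2 share was 28.4% of 1144 rows for TCRBV29-01, 34.2% of 1209 for TCRBV26-01, 65.7% of 3349 for TCRBV04-01 and 69.1% of 1395 for TCRBV31-01. With D stretches of at least 8 bases the productive shares were 42.0% for TCRBV29-01 and 83.9% for TCRBV04-01. In the TILs, pooled for lack of rows, TCRBV29-01 had 37.5% of 152 rows and TCRBV04-01 73.0% of 137.
All 20 genes were matched by name to the GRCm38.p6 annotation. Trbv29 and Trbv26, at chr6:41271403-41271881 and chr6:41227525-41227913, are the nearest of them before Trbd1, at 261 and 305 kb, while Trbv4 is 473 kb before it. Over the 19 genes that lie before Trbd1, the D2 share was higher at greater distance, with Pearson r = 0.630 and Spearman rho = 0.684 across genes for productive rows and 0.542 and 0.654 for out-of-frame rows. These genes share libraries and J segments and are not independent. Without Trbv29 and Trbv26, r was 0.407 and rho 0.559 for productive rows and 0.231 and 0.517 for out-of-frame rows, so that the relation rested in part on them. Trbv31, which lies on the far side of the J2 cluster (-25.2 kb on the same scale of distance before Trbd1) and is known to rearrange by inversion, had 68.9% ± 3.30 (SD, n = 9). Whether the last bases of a V gene bear on the D call was not tested.

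**Figure D5:**
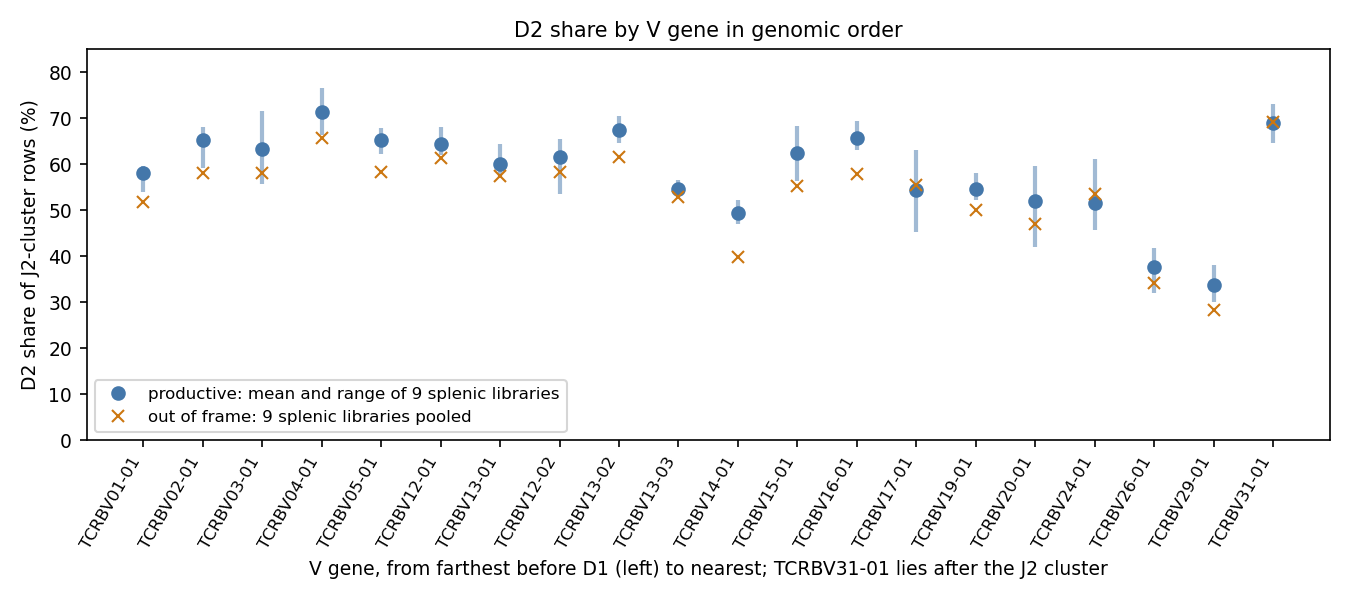
D2 share of J2-cluster rearrangements in percent (y axis) for 20 V genes in genomic order from the farthest before D1 to the nearest, with TCRBV31-01, which lies after the J2 cluster, last (x axis). Circles and bars are the mean and range of 9 splenic libraries for productive rows and crosses are the pooled out-of-frame rows. TCRBV26-01 and TCRBV29-01 lie lowest for both, at 37.6% and 33.7% for productive rows.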

How the data were processed

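DNA of the 12 libraries was amplified by PCR at TCRβ (ImmunoSEQ, survey level) and read on an Illumina NextSeq system, and the company's platform processed the reads (aligner not given in the sources used here; the labels' processing notes name mm10). The authors deposited template counts as whole numbers without normalization, 1 row per nucleotide sequence of 87 bases, which were used here. The deposited fraction of each row, its count over all templates, was not used. CDR3 lengths, junction positions and insertions were taken as deposited.
Productive rows were kept as in the study's methods, and out-of-frame rows were analysed beside them. Groups were tested by two-sided exact permutation within experiments (13824 arrangements, or 216 for the contrast of CX3CR1hi cells and TILs with the CX3CR1lo subsets) and differences within libraries by sign flips (4096), at a threshold of 0.05. Experiments were kept as the replicate block because the study analysed them as repeated measures. Libraries of the same experiment shared a median of 15.1% of productive templates between groups, against 2.58% for different experiments, whereas deviations of D-J shares from the group means had a mean correlation of -0.0354 between libraries of the same experiment (18 pairs, -0.474 to 0.548). D and J segments were named, and printed rearrangements chosen as the most abundant of each pairing, by a rule, and members and measures were chosen with earlier results of these data known. Productive templates per library ranged from 5893 to 113660. Alternatives were the D gene column alone, stretches found in 1 D segment only (neither removed a row), a minimum of 2 templates, template weights, D stretches of at least 8 bases, rearrangements of 1 library, libraries drawn down to 5893 templates (20 draws), equal J2 gene weights, no replicate block (100000 random permutations) and leaving out each experiment. Those added after seeing the data were a D match longer by at least 3 bases, no stretches of G only, no rows with 2 D segments, no most abundant rearrangement, out-of-frame rows, and the tests of out-of-frame rows and clone sizes. Figures were drawn with matplotlib 3.10.9, the permutation tests were written in Python 3.11.15 and tested on simulated data, and tables were handled with scipy 1.17.1, pandas 2.3.3 and numpy 2.4.6.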

Additional observations from a re-analysis of the deposited data

Results flagged for a closer look

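The groups differed in how the D2 share of J2 rearrangements stood to that of their own out-of-frame rows. Productive minus out of frame was 4.50 ± 0.482 points (SD, n = 3) in CD27hiCX3CR1lo cells and below 0 in all 3 TIL libraries, a difference of 7.97 ± 2.84 points between these groups (SD, n = 3; exact permutation p = 0.00174, adjusted p = 0.00868). With at least 2 templates it was 1.33 points (exact permutation p = 0.427) and with template weights -4.14 (exact permutation p = 0.627). The out-of-frame D2 share alone was 10.1 ± 3.24 points higher in TILs (exact permutation p = 0.00347, adjusted p = 0.0116), and the 7.97 points are not separate from this. In productive rows TILs were higher by 2.09 ± 2.54 points, which did not pass (exact permutation p = 0.439, adjusted p = 0.439). The effect of clone size differed before correction only. Rearrangements with several templates minus those with 1 template gave a D2 share 5.95 ± 1.94 points higher in TILs than in CD27hiCX3CR1lo cells (exact permutation p = 0.0330, adjusted p = 0.0825). The CDR3 length that went with D2 was 0.248 ± 0.114 bases smaller in TILs than in CD27hiCX3CR1lo cells (exact permutation p = 0.00174, adjusted p = 0.00868), and with template weights the sign turned, to -0.461 bases (exact permutation p = 0.880). The flagged results are differences between groups in the same contrast, and 2 of them were chosen after their values were seen. The files also hold rows with a second D segment, which were counted above by the D segment that the files name for them and were not described on their own. There were 20 of them in 288925 rows (0.00692%), in 8 of 12 libraries, 19 with D2 beside J2 and 1 with D1 beside J1, and 10 were productive. How often such a row arises from a false match was not tested.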

How the results depend on the processing

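Taking the D name from the gene column alone, or keeping only stretches found in 1 D segment, left every row in place, so that these 32 values could not differ. Of the other 187 alternative values, 132 kept their direction and their side of the threshold of 0.05, 37 no longer passed it, 14 newly passed it and 4 changed sign. With at least 2 templates, the D2 share of J2 differed by 6.15 points between groups and 3.35 in the contrast of CX3CR1hi cells and TILs with the CX3CR1lo subsets, and by 4.33 between productive and out-of-frame rows, all now past the threshold. The test of the J2 share of D1 over the 4 groups also passed (exact permutation p = 0.0312), although TILs and CD27loCX3CR1lo cells, the pair furthest apart with all rearrangements, then differed by 0.0674 points. Also with at least 2 templates, the resolved share (-1.15 points, productive minus out of frame), V-D insertions (-0.0412 bases), the CDR3 difference by group (0.489 bases), the productive minus out-of-frame difference by group (1.33 points) and the out-of-frame D2 share by group (7.48 points) no longer passed. Weighting by templates turned V-D insertions to 0.103 bases, the CDR3 difference by group to -0.461 bases and the productive minus out-of-frame difference by group to -4.14 points. It gave 7.31 points for the D2 share, productive minus out of frame (newly passed), and -2.49 for the resolved share, 2.44 for the J2 share of D1 and 14.3 for clone size by group (none passed). D stretches of at least 8 bases gave 1.59 points for the contrast and 0.208 bases for N insertions by group (newly passed), turned the J2 share of D1 by group to -0.0192 points, and gave 2.90 points for its productive minus out-of-frame value, -0.0514 bases for V-D insertions, 0.369 bases for CDR3 by group, 6.03 points for productive minus out of frame by group and 1.53 for clone size by group (none passed). A match longer by at least 3 bases, added after seeing the data, gave 2.38 points, -0.0189 bases, 0.279 bases, 6.47 points and 3.28 points for the same 5 (none passed) and 0.187 bases for N insertions by group (newly passed). Rearrangements of 1 library gave 5.43 points for templates and 0.576 for the resolved share by group (both newly passed) and 0.385 bases for CDR3 by group (not passed). Equal J2 gene weights gave 2.62 points for productive minus out of frame (newly passed) and 0.0314 N bases (not passed). Drawing down to the shallowest library gave 3.09 points for the D2 share by group, and out-of-frame rows, added after seeing the data, 5.35 for the contrast (both newly passed). Without the replicate block the D2 share of templates differed by 11.1 points with a permutation p of 0.0444, and leaving it out changed no other call. Sign flips over 3 experiment means left the values as they were (51.0 and -1.31 points, 1.36 points, 2.31, 0.0884, -0.0633, 0.152 and 1.94 bases) with an exact permutation p of 0.25 for each, the smallest possible. Leaving out each experiment gave -1.70 to -1.11 points for the resolved share, 0.789 to 1.76 for the J2 share of D1, productive minus out of frame, 8.70 to 11.9 for the out-of-frame D2 share by group and 5.35 to 7.06 for clone size by group. The last did not pass without any of the experiments A, B or C. In each case the cause was not tested, although the smallest p over 2 experiments is 0.0417. The TIL libraries, with 760 to 1228 productive J2 rows, limit what could be detected.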
